A study of Mus musculus with 12 samples.

Results

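The mammalian circadian clock was examined in mouse liver through 10 of its genes, taken by symbol: Clock, Arntl, Per1, Per2, Per3, Cry1, Cry2, Dbp, Tef and Nr1d1. Of these, 8 were matched to a named probe of the array, among 17742 named genes in all, with 9 probes between them because Per3 had 2. Cry1 and Cry2 were not matched and are not analysed here. The brightest probe over the 12 arrays stood for a gene.

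RNA was taken from the livers of mice in 3 groups, with a labelled age of 8 weeks that is not tied to the start or the end of the experiment. Control mice had no treatment. STZ mice had been made diabetic with streptozotocin, a toxin of the insulin-producing beta cells of the pancreas. STZ+MENS mice were diabetic in the same way and also received MENS, a device treatment whose name is not spelled out, for 1 h a day on 5 days a week over 6 weeks. Each group held 2 livers, called liver 1 and liver 2, and each liver was hybridised to 2 arrays, so n = 2 livers per group throughout. The labels used here give no strain, sex or time of day at harvest, so a difference in clock phase or harvest time cannot be told apart from a treatment. They do not say that a liver is 1 animal, so the p-values reflect no more than the scatter of these livers, which may be technical.

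The clock is a loop of transcription. CLOCK pairs with ARNTL (also called BMAL1) at E-box sequences and switches on the Per and Cry genes, whose proteins return to the nucleus and inhibit the pair. In a further loop the nuclear receptor NR1D1 (REV-ERBalpha) represses Arntl, and the PAR bZIP factors DBP and TEF act at D-box sequences. In liver, Dbp, Tef, Nr1d1 and the Per genes are known to peak between the middle of the light phase and the early dark phase. Arntl and Clock are known to peak around the end of the dark phase. Feeding, glucocorticoids and body temperature are known to set the liver clock, and Per1 is also induced directly by stress and hormone signals.

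Levels are log2(intensity + 50), so a difference of 1 is a 2-fold change. The intensities of the 8 genes ran from 515 (Arntl) to 172645 (Dbp), and the brightest rank any of them reached was 167 among 26423 probes. Arntl was the dimmest, at ranks from 10611.5 to 15132.5. Its intensities of 515 to 1383 lay around the array medians of 769 to 770. Levels of different genes come from different probes and are not compared. Gene profiles of the 2 arrays of a liver correlated at 0.986 to 0.996 across genes. Arrays of different livers of a group correlated at 0.976 to 0.988, a range that overlapped with the 0.958 to 0.985 of different groups. The hepatocyte markers that were measured (3 of 6 listed: Alb, Apoa1 and Ttr) stood at rank 22 or better on every array. The samples are whole liver, so fewer cells of a type and less RNA per cell cannot be told apart.

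Short stretches of promoter are shown for 4 of the measured members and for Ciart, chosen among the genes with E-box, E-prime box or D-box letters, since these are the sequences through which CLOCK, ARNTL, DBP and TEF act on the loop. They come from RefSeq (GRCm38.p6), in windows that run from 250 bases before to 50 bases after a transcript start, and they are written 5′ to 3′ on the strand of the gene with the motif in capitals. Per1 spans chr11:69098763-69098948 (plus strand, an E-box and then a D-box), Per3 chr4:151044796-151044890 (minus strand, 2 D-boxes), Tef chr15:81802526-81802571 (plus strand, an E-box) and Nr1d1 chr11:98775380-98775425 (minus strand, an E-prime box). Ciart, a repressor of the loop that is described with the further clock genes, spans chr3:95882247-95882364 (minus strand, 3 E-boxes).
Per1: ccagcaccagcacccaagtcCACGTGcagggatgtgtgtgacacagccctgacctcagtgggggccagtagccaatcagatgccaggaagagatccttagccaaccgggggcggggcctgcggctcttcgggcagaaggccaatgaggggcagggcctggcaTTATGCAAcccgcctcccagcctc
Per3: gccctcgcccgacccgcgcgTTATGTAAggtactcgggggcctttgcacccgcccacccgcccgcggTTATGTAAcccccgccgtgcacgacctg
Tef: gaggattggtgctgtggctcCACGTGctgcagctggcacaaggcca
Nr1d1: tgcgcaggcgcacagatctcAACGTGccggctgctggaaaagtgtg
Ciart: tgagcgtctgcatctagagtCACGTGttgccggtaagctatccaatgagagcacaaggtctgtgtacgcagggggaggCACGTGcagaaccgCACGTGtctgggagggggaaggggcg

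The search covered both strands for the E-box CACGTG, the E-prime box CACGTT, the D-box as TTATGTAA or TTATGCAA, the core of the ROR element as TAGGTCA or TGGGTCA, the cAMP response element TGACGTCA and the heat shock element. Of the 10 listed genes, 9 had a window and 14 windows were searched; Per2 was not matched. The E-box was found in 4 of the 14 windows (Per1, Cry1 and both Tef starts), or 28.6%, against 7.15% of all 32851 windows. The E-prime box was in 3 windows (Cry1, Cry2 and Nr1d1), or 21.4%, against 4.68% of all. The D-box was in 2 windows (Per1 and Per3), or 14.3%, against 1.66% of all. The ROR core was in 1 Arntl window, 30 bases after the start, and in 6.45% of all windows. The cAMP response element and the heat shock element were in 0 of the 14, against 1.79% and 7.8% of all. Matches of different motifs did not overlap in these windows. A match is a description of the letters and not a bound site.

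The activator Clock was lowest in the STZ+MENS livers. Its log2 level was 11.37 and 11.02 in the control livers, 11.69 and 11.37 in STZ and 10.88 and 10.71 in STZ+MENS. Both STZ+MENS livers lay below all 4 others, while control and STZ overlapped. By array, STZ+MENS (1367 to 1977) overlapped with control (1895 to 2691) and lay below STZ (2473 to 3565). The difference of STZ+MENS from STZ was -0.73 ± 0.19 (SE), or 1.66-fold lower, with limma's adjusted p = 0.0945. Against control the difference was -0.40 ± 0.19 (adjusted p = 0.337), and -0.23 without control liver 1.

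Its partner Arntl was highest in the STZ livers, and unevenly so. The livers stood at log2 levels of 9.42 and 9.33 in control, 10.29 and 9.57 in STZ and 9.64 and 9.42 in STZ+MENS. Liver 1 of STZ stood above every other liver, and liver 2 of STZ overlapped with STZ+MENS. The difference of STZ from control was 0.56 ± 0.25 (adjusted p = 0.327), with a 95% interval from the model of -0.05 to 1.16. It ran from 0.20 without STZ liver 1 to 0.91 without STZ liver 2. STZ+MENS differed from STZ by -0.40 ± 0.25, which was -0.04 without STZ liver 1 and -0.76 without STZ liver 2, and from control by 0.16 ± 0.25.

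Among the repressors of the measured members, Per1 had the widest difference between groups on the brightest probe of each gene. The dimmer Per3 probe, described with Per3, differed by more. The log2 level of Per1 was 12.74 and 13.05 in control, 13.38 and 13.54 in STZ and 14.16 and 13.84 in STZ+MENS. The groups did not overlap and stood in the order control, STZ, STZ+MENS, an order that 444 of the 17742 genes (2.5%) showed. STZ+MENS was 2.15-fold above control (1.11 ± 0.19, 95% interval 0.65 to 1.56, adjusted p = 0.113), STZ was above control by 0.57 ± 0.19 (adjusted p = 0.218), and STZ+MENS was above STZ by 0.54 ± 0.19 (adjusted p = 0.147). These comparisons share livers and are not independent of each other.

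The arrays of STZ+MENS liver 2 disagreed for Per1, at intensities of 10908 and 19449, which is the largest gap between arrays of a liver for any of the 8 genes (0.83 on the log2 scale). By array, Per1 ran from 6333 to 8790 in control, from 10439 to 12062 in STZ and from 10908 to 19911 in STZ+MENS. All 4 control arrays were below all 8 others, and the ranges of STZ and STZ+MENS met. Between arrays of a liver the SD was 0.26 for Per1, above the SD of 0.19 between livers of a group.

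Per2, which shares the PER fold and function of Per1, did not follow it. Log2 levels were 15.62 and 15.03 in control, 14.65 and 14.81 in STZ and 14.96 and 14.67 in STZ+MENS. Both control livers lay above the other 4, but 0.59 apart from each other. By array, control (31644 to 50663) overlapped with STZ+MENS (22589 to 33193) and lay above STZ (25372 to 29862). STZ differed from control by -0.59 ± 0.23 (adjusted p = 0.274) and STZ+MENS by -0.50 ± 0.23 (adjusted p = 0.317). Without control liver 1, the brightest, these became -0.30 and -0.21. STZ+MENS and STZ differed by 0.09 ± 0.23, with an interval of -0.47 to 0.65.

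Per3, the PER protein least needed for rhythm, gave different sizes of difference on its 2 probes. On the brighter probe its log2 level was 14.56 and 14.78 in control, 14.39 and 14.85 in STZ and 15.06 and 14.88 in STZ+MENS. Control and STZ overlapped there (-0.05 ± 0.20), and STZ+MENS differed from STZ by 0.35 ± 0.20 (adjusted p = 0.323), or 0.12 without STZ liver 1 and 0.58 without STZ liver 2. On the dimmer probe the log2 level was 13.20 and 13.41 in control, 12.20 and 12.72 in STZ and 13.97 and 13.50 in STZ+MENS. There the 3 groups did not overlap and STZ was lowest.

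In a fit of all 26423 probes, added after the probes were seen to differ, the dimmer Per3 probe differed by -0.84 ± 0.24 between STZ and control (adjusted p = 0.204). Between STZ+MENS and STZ it differed by 1.28 ± 0.24 (adjusted p = 0.0774). The intensity of that probe ran from 4160 to 6849 on the 4 STZ arrays, from 8981 to 11308 on the control arrays and from 11234 to 16404 on the STZ+MENS arrays. With the mean of both probes the Per3 differences were -0.45 and 0.81. Where each probe lies in the gene is not given in the sources used here.

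**Figure D1:**
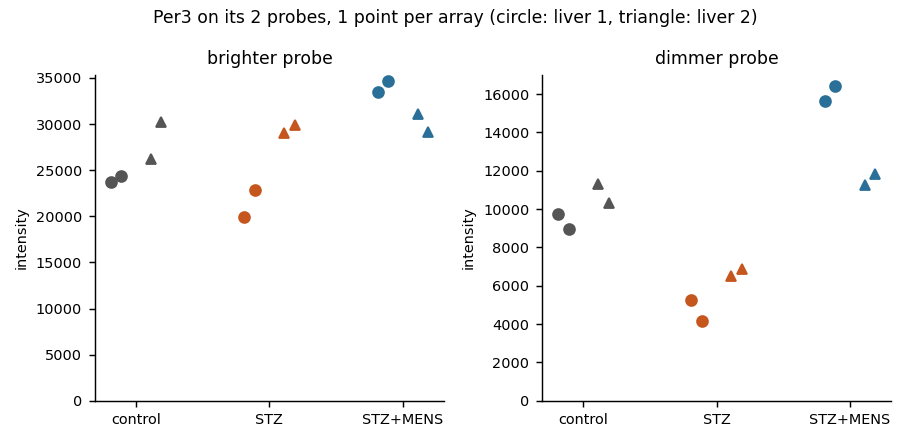
Intensity of Per3 on each of the 12 arrays for the brighter (left) and the dimmer probe (right), on linear axes, with circles for liver 1 and triangles for liver 2 of each group; both axes start at 0. On the dimmer probe the 4 STZ arrays, at 4160 to 6849, lie below all others, and on the brighter probe the STZ and control arrays overlap.

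Nr1d1, the repressor of Arntl, was lowest in the STZ+MENS livers. Its log2 level was 13.42 and 13.20 in control, 13.42 and 12.94 in STZ and 12.64 and 12.66 in STZ+MENS. The STZ+MENS livers lay below all others and the STZ livers overlapped with control. By array, STZ+MENS (5326 to 7726) overlapped with STZ (7621 to 12485) and lay below control (9330 to 10908). The difference of STZ+MENS from control was -0.66 ± 0.20, or 1.58-fold lower (adjusted p = 0.174), and from STZ it was -0.54 ± 0.20 (adjusted p = 0.162), and -0.30 without STZ liver 1. STZ and control differed by -0.12 ± 0.20.

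Dbp, an output of the CLOCK and ARNTL pair and a driver of D-box genes, was lowest in the STZ livers. The log2 levels were 16.95 and 17.24 in control, 16.68 and 16.65 in STZ and 17.35 and 17.15 in STZ+MENS. On the arrays, intensity ran from 100783 to 108894 in STZ, below the lowest of the control (125329) and of the STZ+MENS arrays (140244). STZ was 1.35-fold below control (-0.43 ± 0.16, adjusted p = 0.266, and -0.28 without control liver 2). STZ+MENS was 1.50-fold above STZ (0.58 ± 0.16, adjusted p = 0.105) and overlapped with control (0.15 ± 0.16, interval -0.24 to 0.55).

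Tef, of the same PAR bZIP family, showed the same order of group means, with smaller differences between STZ and each of the other groups. STZ+MENS differed from control by 0.21 ± 0.17 for Tef, against 0.15 ± 0.16 for Dbp. Tef stood at log2 levels of 13.74 and 13.75 in control, 13.40 and 13.63 in STZ and 13.78 and 14.13 in STZ+MENS. The livers of the 3 groups did not overlap, though control (13.75) and STZ+MENS (13.78) nearly met. By array the intensities did overlap. They ran from 13136 to 14200.5 in control, from 10067 to 12757 in STZ and from 12714 to 20642.5 in STZ+MENS. STZ differed from control by -0.23 ± 0.17 (adjusted p = 0.551) and STZ+MENS from STZ by 0.44 ± 0.17 (adjusted p = 0.182). Without STZ+MENS liver 2 the latter was 0.27, and the former ran from -0.11 without STZ liver 1 to -0.35 without STZ liver 2. Dbp and Tef were the 2 measured members with STZ below both other groups and no overlap, an order that 18.3% of all genes showed.

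**Figure D2:**
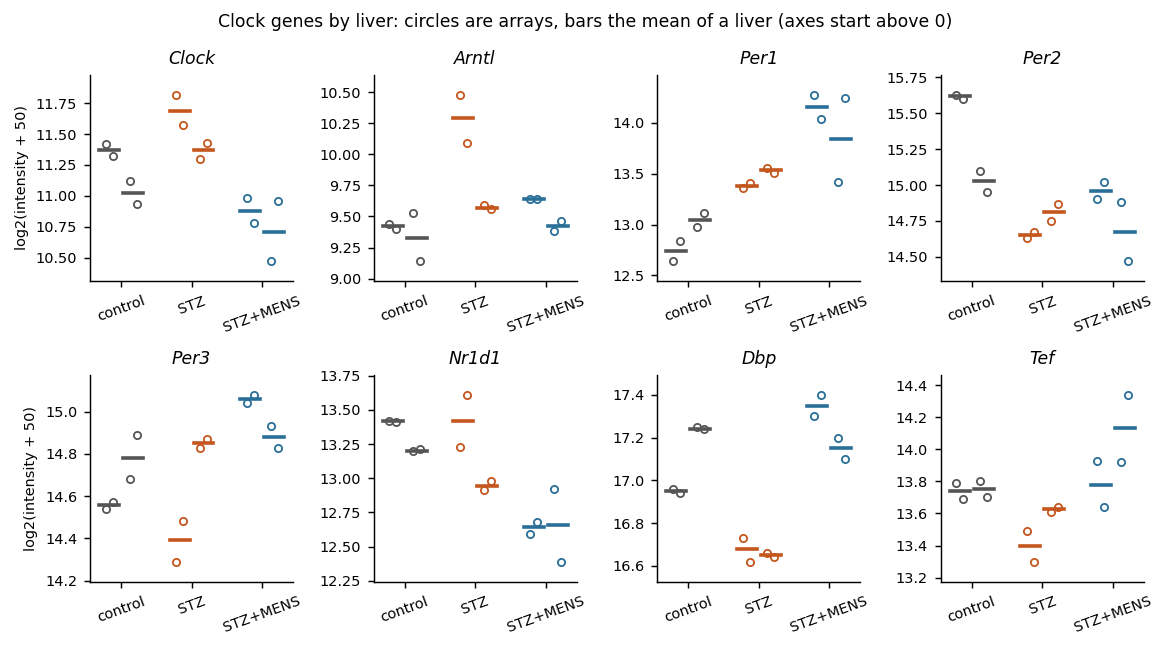
Log2 level of the 8 clock genes by group, with a circle for each array and a bar for the mean of each liver (liver 1 left, liver 2 right); the axes differ between genes and start above 0. Per1 steps up over the 3 groups, Dbp is lowest in STZ, and Clock and Nr1d1 are lowest in STZ+MENS.

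Set against the whole array, the comparison of STZ with control put 0 of the 8 members past the threshold (adjusted p under 0.05 in limma), where 0.00564% of all genes, a single gene, passed. At an unadjusted p under 0.05 stood Per1, higher, and Per2 and Dbp, lower. That is 1 of 8 higher against 8.48% of all genes, and 2 of 8 lower against 8.49%. The livers did not overlap for 5 of 8 members (62.5%), against 52.1% of all genes. The median difference was -0.09 over the 8 and -0.02 over all genes. The count of 3 at the unadjusted threshold fell to 1 without control liver 1, STZ liver 1 or STZ liver 2.

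In the comparison of STZ+MENS with STZ, 0 of the 8 passed, as for all genes (0%). At an unadjusted p under 0.05 stood 5 of the 8. Per1, Dbp and Tef were higher, 3 of 8 against 12.6% of all genes, and Clock and Nr1d1 were lower, 2 of 8 against 12.8%. The livers did not overlap for 6 of 8 (75%), against 57.9% of all genes, and the median difference was 0.22 over the 8 and 0.06 over all genes. The count of 5 was 1 without STZ liver 1, 2 without STZ+MENS liver 1 and 3 without STZ+MENS liver 2. With all 12 arrays in the fit and the liver as a random block, Dbp (adjusted p = 0.00803) and Clock (adjusted p = 0.0312) passed in limma, in a setting that called 3079 genes. That setting assumes the same correlation of 0.48 between arrays of a liver for every gene, and n remains 2 livers per group. For Dbp the SD was 0.05 between arrays of a liver and 0.15 between livers of a group. Its arrays were thus closer to repeats than that setting assumes.

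In the comparison of STZ+MENS with control, 0 of the 8 passed, where again 0.00564% of all genes did. Per1 was higher at an unadjusted p under 0.05, 1 of 8 against 8.82% of all genes, and Nr1d1 was lower, 1 of 8 against 9.18%. The livers did not overlap for 7 of 8 (87.5%), against 48.6% of all genes, with Dbp the exception. Some of these were near ties. For Arntl, control liver 1 and STZ+MENS liver 2 both stood at 9.42 after rounding. For Tef, control liver 2 stood at 13.75 and STZ+MENS liver 1 at 13.78. The median difference was 0.16 over the 8 and 0.02 over all genes. Without control liver 1 the count of 2 became 1, and with the 12 arrays in the fit Per1 passed (adjusted p = 0.0270) among 1336 genes called.

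**Figure D3:**
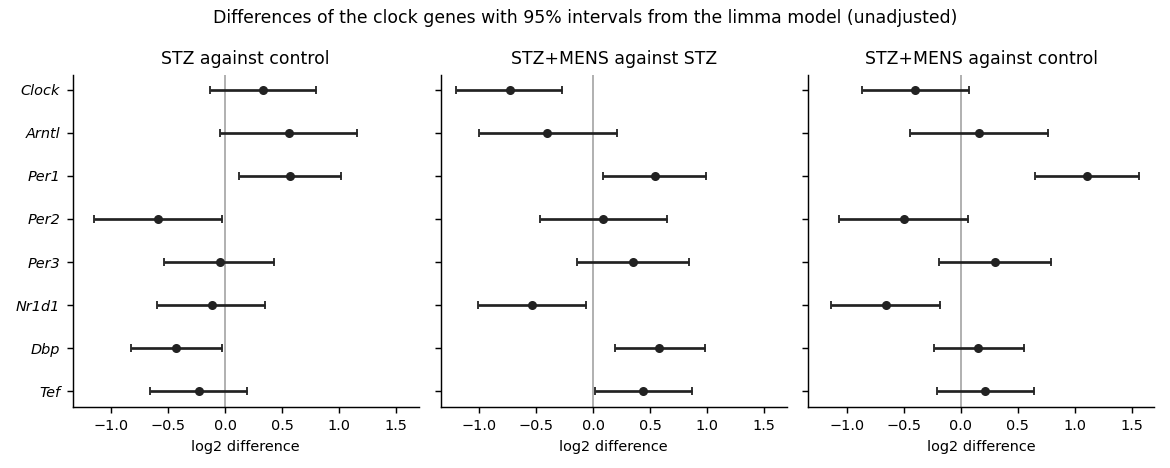
Log2 difference of each clock gene in the 3 comparisons, with the 95% interval of the limma model before adjustment for the number of genes. Per1 against control in STZ+MENS lies farthest from 0, at 1.11, and none of the differences passed after adjustment over all genes.

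The members known to peak at different times were also averaged per liver, relative to the control mean. One set held the 6 genes that peak between the middle of the light phase and the early dark phase (Per1, Per2, Per3, Nr1d1, Dbp and Tef). Its mean was -0.19 and -0.10 in STZ and 0.15 and 0.05 in STZ+MENS. Over Clock and Arntl, of the end of the dark phase, it was 0.71 and 0.18 in STZ and -0.02 and -0.22 in STZ+MENS, against 0.11 and -0.11 in control. The 6 genes of the first set do not all peak at the same hour, and they did not move as 1 group. Between STZ+MENS and control they ran from -0.66 (Nr1d1) to 1.11 (Per1).

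Further genes of the loop were read from a list of 11, of which 10 were measured. None passed after adjustment, in any comparison. At an unadjusted p under 0.05, 2 were higher in STZ than in control (Nr1d2 and Ciart), 2 lower in STZ+MENS than in STZ (Nr1d2 and Rora), and 1 higher (Ciart) and 1 lower (Rora) in STZ+MENS than in control. That is 20% of the list in each comparison, near the 17%, 25.4% and 18% of all genes. Each count of 2 became 1 without a liver: without control liver 1 in both comparisons with control, without STZ+MENS liver 1 in STZ+MENS against control, and without STZ liver 1 in STZ+MENS against STZ.

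Ciart, which represses the CLOCK and ARNTL pair and whose promoter stretch above holds 3 E-boxes, was ordered like Per1. Its log2 level was 10.15 and 10.81 in control, 11.30 and 11.53 in STZ and 12.26 and 11.68 in STZ+MENS. STZ+MENS was 2.80-fold above control (1.48 ± 0.29, adjusted p = 0.123). The groups did not overlap.

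Nr1d2 (REV-ERBbeta), the close relative of Nr1d1, stood highest in the STZ livers, where Nr1d1 overlapped with control. Its log2 level was 11.91 and 11.71 in control, 12.86 and 12.45 in STZ and 11.86 and 12.13 in STZ+MENS. STZ differed from control by 0.84 ± 0.20 (adjusted p = 0.148), and STZ+MENS from STZ by -0.66 ± 0.20 (adjusted p = 0.116). Rora, the activator that competes with the REV-ERB receptors for the ROR element, was lowest in STZ+MENS. It stood at 12.86 and 12.41 in control, 13.18 and 12.75 in STZ and 11.45 and 12.06 in STZ+MENS, and STZ+MENS differed from STZ by -1.21 ± 0.28 (adjusted p = 0.0772).

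The other loop genes differed less. Between STZ and control, Hlf, the remaining PAR bZIP factor, differed by -0.28 ± 0.21, Nfil3, a repressor at D-boxes, by 0.10 ± 0.32, and Npas2, which can stand in for CLOCK, by -0.18 ± 0.15. Bhlhe40 and Bhlhe41, repressors at E-boxes, differed by 0.43 ± 0.24 and 0.07 ± 0.14. Between STZ+MENS and STZ these were 0.08 ± 0.21 for Hlf, -0.37 ± 0.32 for Nfil3, -0.05 ± 0.15 for Npas2, -0.52 ± 0.24 for Bhlhe40 and 0.20 ± 0.14 for Bhlhe41. Arntl2 and Rorb had group means of 6.46 to 7.17 on the log2 scale, near the level of 5.64 that the offset alone gives.

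**Figure D4:**
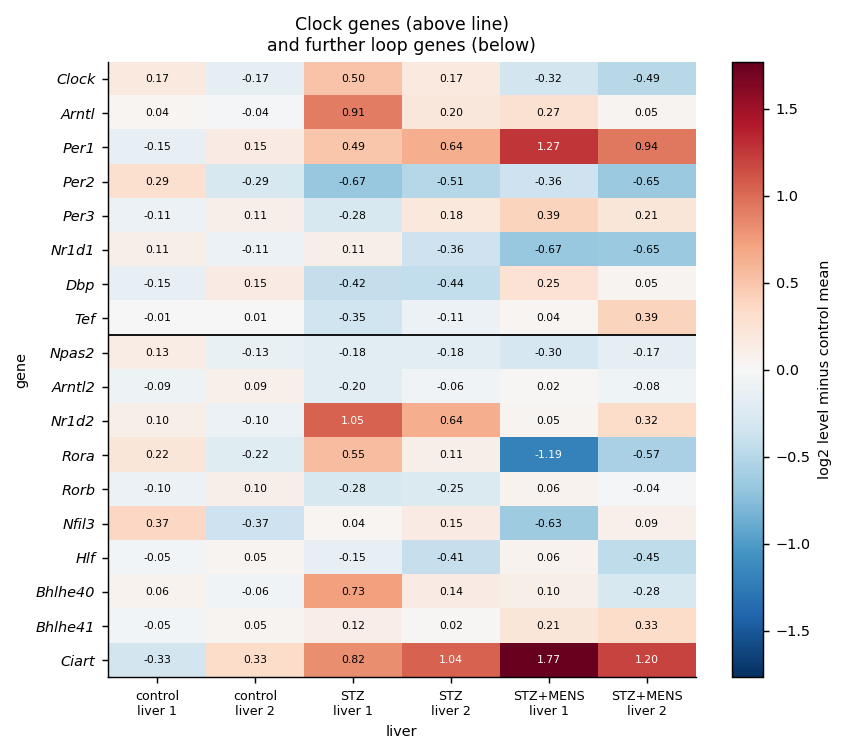
Log2 level of the 8 clock genes (above the line) and 10 further loop genes (below) in each of the 6 livers, minus the mean of the control livers; red is higher, blue lower. Per1 and Ciart reach 1.27 and 1.77 in STZ+MENS liver 1, Nr1d2 is high in both STZ livers, and Rora is low in both STZ+MENS livers.

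Of 18 genes whose proteins modify clock proteins or sit in the repressor complexes, 15 were measured and none passed after adjustment. In STZ against control, 0 of the 15 had an unadjusted p under 0.05. Between STZ+MENS and STZ, Hdac3, the deacetylase recruited by the REV-ERB receptors, was higher (0.56 ± 0.19), and Csnk1a1, a casein kinase (-0.57 ± 0.17), and Sirt1, an NAD-dependent deacetylase (-0.43 ± 0.14), were lower. Sirt1 was also the 1 gene lower in STZ+MENS than in control (-0.35 ± 0.14). These are 0%, 20% and 6.67% of the list, below the 17%, 25.4% and 18% of all genes. The count of 3 in STZ+MENS against STZ ran from 1 to 6 over the livers left out: it was 1 without STZ liver 1, STZ liver 2 or STZ+MENS liver 1 and 6 without STZ+MENS liver 2. In STZ against control the count of 0 ran up to 2, without control liver 2, and in STZ+MENS against control the count of 1 ran from 0 to 3, with 0 without either control or either STZ liver and 3 without STZ+MENS liver 2.

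Of 23 liver genes known to cycle or to be driven by the clock, 21 were measured and none passed after adjustment. In STZ against control 4 were higher and 3 lower at the unadjusted threshold. Those with the smallest p were Klf10 (1.97 ± 0.32), a zinc finger factor, Insig2 (1.15 ± 0.24), a sterol regulator, and Rgs16 (1.95 ± 0.45), a regulator of G protein signalling, all higher, with Ces2a (-0.59 ± 0.14), Avpr1a (-0.48 ± 0.13) and Nr0b2 (-0.43 ± 0.17) lower. In STZ+MENS against STZ 2 were higher, Elovl3 (1.65 ± 0.29), a fatty acid elongase with a strong daily rhythm, and Nr0b2 (0.59 ± 0.17), and 7 were lower, led by Insig2 (-1.46 ± 0.24), Avpr1a (-0.72 ± 0.13) and Klf15 (-0.98 ± 0.19). In STZ+MENS against control 3 were higher, Rgs16 (2.89 ± 0.45), Klf10 (1.34 ± 0.32) and Elovl3 (1.00 ± 0.29), and 4 lower, led by Avpr1a (-1.20 ± 0.13), Ces2a (-0.83 ± 0.14) and Coq10b (-0.70 ± 0.13). The share at that threshold was 33.3%, 42.9% and 33.3% of the list in the 3 comparisons, against 17%, 25.4% and 18% of all genes.

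Rgs16 shared the order of Per1 and Ciart, with log2 levels of 9.86 and 10.85 in control, 12.82 and 11.78 in STZ and 12.97 and 13.52 in STZ+MENS. Avpr1a, Coq10b and Ces2a of the same list stood in the reverse order without overlap. The order of Rgs16 was shown by 2.5% of all genes and the reverse by 1.8%. Elovl3, like Dbp, was lowest in STZ, at 10.63 and 10.91 in control, 10.13 and 10.12 in STZ and 12.20 and 11.35 in STZ+MENS. Its STZ+MENS livers lay above control, where those of Dbp overlapped with control. Of the same list, Nr0b2 was also lowest in STZ without overlap, while Alas1, Insig2, Slc45a3 and Klf15 were highest there without overlap. STZ lay below both other groups without overlap for 18.3% of all genes and above both for 12.6%.

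Genes that answer to glucocorticoids and to temperature, signals which set the liver clock, were read in the same comparisons. Of 11 glucocorticoid-responsive genes, Per1 among them, 4 were higher in STZ than in control at the unadjusted threshold, Zbtb16 (3.28 ± 0.50), Fkbp5 (1.28 ± 0.28), Dusp1 (0.96 ± 0.26) and Per1. Between STZ+MENS and STZ 4 were lower, led by Tat (-1.17 ± 0.23), Dusp1 (-1.25 ± 0.26) and Zbtb16 (-1.83 ± 0.50), and Per1 alone was higher. Per1, Fkbp5 (0.94 ± 0.28) and Zbtb16 (1.45 ± 0.50) were higher and Tat (-1.29 ± 0.23) lower in STZ+MENS than in control. Of the 11, 0 passed after adjustment. The share at the unadjusted threshold was 36.4%, 45.5% and 36.4% in STZ against control, STZ+MENS against STZ and STZ+MENS against control, where it was 17%, 25.4% and 18% of all genes. The count of 5 in STZ+MENS against STZ was 3 without STZ liver 1 or STZ+MENS liver 1, and the count of 4 in STZ+MENS against control was 2 without control liver 1.

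Of 9 temperature-responsive genes 7 were measured, and 0 passed after adjustment. Hspa1a, an inducible chaperone whose near-identical copy Hspa1b may share its probe's signal, was lower in STZ than in control (-1.86 ± 0.64) at the unadjusted threshold, and Dnajb1 (-1.52 ± 0.51) and Hsph1 (-1.38 ± 0.46) were lower in STZ+MENS than in STZ. In STZ+MENS against control 5 were lower, led by Hspa1a (-2.84 ± 0.64), Dnajb1 (-2.21 ± 0.51) and Hsph1 (-1.74 ± 0.46), and 1 was higher, Cirbp (0.70 ± 0.27), an RNA-binding protein induced by cold. Rbm3, the other cold-induced RNA-binding protein of the list, was among the 5 lower genes (-0.63 ± 0.21). The share of the list was 14.3%, 28.6% and 85.7% in the 3 comparisons, against 17%, 25.4% and 18% of all genes. The count of 1 in STZ against control was 0 without control liver 1 or STZ liver 2 and 3 without control liver 2. In STZ+MENS against STZ the count of 2 was 0 without STZ liver 1 or STZ+MENS liver 1 and 6 without STZ liver 2, and in STZ+MENS against control the count of 6 was 2 without control liver 1. The part of these signals in the differences of the clock genes was not tested.

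Markers of liver cells were summed over the measured genes of each list, as the range of intensity over the livers of a group. A sum follows the brightest genes of its list and does not show that the genes of a list agree. The Kupffer cell list, for example, held a gene with an intensity as low as 120. The hepatocyte markers summed to 1520000 to 1560000 in control, 1390000 to 1440000 in STZ and 1510000 to 1530000 in STZ+MENS, lowest in STZ without overlap, as Dbp and Tef were. Kupffer cell markers (5 of 5 measured) summed to 28600 to 32500 in control, 28600 to 30100 in STZ and 32500 to 52500 in STZ+MENS. Cholangiocyte markers (5 of 5) summed to 15500 to 15800, 17500 to 23200 and 16300 to 21800. Endothelial markers (4 of 5) ran from 59700 to 68700, from 50600 to 57200 and from 59400 to 76200, which is lowest in STZ, as Dbp and Tef were. Lymphocyte markers (3 of 4) ran from 6790 to 7740, from 5800 to 5930 and from 6120 to 6870, also lowest in STZ, and in both lists STZ+MENS overlapped control. Stellate (5 of 5) and neutrophil markers (2 of 3) overlapped between all groups, and of 6 erythroid markers only Alas2 was measured. Its intensity was 78200 and 95000 in the control livers, 32400 and 55200 in STZ, below both control livers, and 9160 and 104000 in STZ+MENS. Their part in the differences of the clock genes was not tested.

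The genes whose pattern over the 6 livers was most like that of a clock gene were found by the root mean square distance of centred log2 levels over 17734 genes. For Dbp, whose own spread was 0.27, they were Zfp282 (distance 0.0252), Twist2 (0.0363) and Nr0b2 (0.0365). For Arntl, with a spread of 0.32, they were Bbs1 (0.0780), Esrrb (0.0826) and Cplx1 (0.0847). With 6 livers and this many genes, close matches to any pattern exist, and the distances are a description.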

How the data were processed

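Total RNA from 6 livers was measured on 12 single-colour Cy5 arrays (Phalanx Mouse OneArray v2, per the labels' protocols). The deposited values are linear intensities that the authors had processed. Array medians lie between 768.89 and 770.33, and 44 to 52 values per array are below 0. How background was removed and arrays were scaled is not given in the sources used here. The submitters' processing notes list limma 3.30.7 but no step for it.

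Values below 0 were set to 0, 50 was added, log2 was taken and the 2 arrays of a liver were averaged. The platform annotation named 20377 of 26423 probes with 1 gene, 0 with several, and left 6046 unnamed. Symbols were updated through a RefSeq table (18213 current, 2126 by synonym, 38 as on the platform). One limma model (limma 3.58.1 in R 4.3.3, tables read with data.table, version 1.17.8) covered all genes, with 1 coefficient for each group, with 3 residual and 3.19 prior degrees of freedom. Tests were two-sided, with Benjamini-Hochberg adjustment over all 17742 genes and a threshold of 0.05, and errors are standard errors. The scripts were tested on simulated data. An exact permutation test of 2 against 2 livers cannot go below 0.33 and was not used. The precision is limited by the number of arrays and, above all, of livers.

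The members and lists were chosen with earlier results of these data known. All members are named, as are the measured loop genes and, of other lists, up to 3 genes per direction with the smallest unadjusted p under 0.05. Plots were made with Python 3.11.15 and matplotlib 3.10.9.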

Additional observations from a re-analysis of the deposited data

How the results depend on the processing

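Results were recomputed under 16 alternatives: offsets of 10 and 200, the mean of all probes of a gene, genes with a mean intensity of at least 100, the first or second array of each liver, all 12 arrays with the liver as a random block (correlation 0.48), quantile normalization, the 2 groups alone, the sample number (1 or 2) of the source labels as a replicate block, and leaving out each of the 6 livers. Of the 24 differences of the 8 clock genes, 21 kept their sign in all of them. The others were near 0 on the brightest probe: over the livers left out, Per3 in STZ against control ran from -0.28 to 0.18 (0.06 without control liver 2, 0.18 without STZ liver 1), Nr1d1 there from -0.36 to 0.11 (without STZ liver 2), and Per2 in STZ+MENS against STZ from -0.06 (without STZ+MENS liver 1) to 0.23, with -0.02 on the second arrays. With the mean of its probes Per3 moved to -0.45 in STZ against control and from 0.35 to 0.81 in STZ+MENS against STZ. The fit of the 12 arrays counts arrays of a liver as partly independent and so has more residual degrees of freedom. In it 2 members passed after adjustment in STZ+MENS against STZ and 1 in STZ+MENS against control. The main count was 0 in each. The count at an unadjusted p under 0.05 in STZ against control was 1 on the second arrays and 1 to 3 over the livers left out, against 3. In STZ+MENS against STZ it was 3 on the first arrays and 1 to 5 over the livers left out, against 5, and in STZ+MENS against control 1 to 3, against 2. A liver left alone in its group is assumed to vary like the other groups. The source labels number the livers 1 and 2 in each group, while the titles number the STZ livers differently from the others; deviations of same-numbered livers correlated at 0.00, -0.03 and -0.07 across genes, so they are not read as pairs. With the replicate block 0 members passed after adjustment in any comparison.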
